A study of Mus musculus with 6 samples.

Results

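miR-455-3p and miR-455-5p, the 2 mature microRNAs (miRNAs) cut from the 2 arms of the miR-455 hairpin, were followed in mouse kidney of 2 ages. They were taken by name from an array with probes for 1247 mouse miRNAs, of which they are 2, and they were singled out because both had lower signal in aged kidney on these same arrays. The age difference is therefore given as a description, with no test. The aged group held kidneys of male C57BL/6 mice at 20 months (3 arrays), and the young group held kidneys of male C57BL/6 mice at 2 months (3 arrays). C57BL/6 is an inbred laboratory strain, and no treatment or mutation is named for either group. Each array carried Cy3-labelled total RNA of 1 preparation. The labels do not say which animal a preparation came from, so the spread between arrays may be partly technical.

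A miRNA hairpin is cut by the nucleases Drosha and Dicer into a short duplex, either strand of which can be loaded into an Argonaute protein, and the bases next to the 5′ end of the loaded strand, the seed, lead the pairing with target messenger RNAs. The gene of this hairpin lies within Col27a1, which encodes a fibrillar collagen of cartilage. miR-455 is best known from chondrocytes and from brown fat, where it favours brown adipocyte differentiation by lowering repressors such as Runx1t1 and Necdin. In kidney, miR-455-3p has been reported to repress the kinase ROCK2 in models of fibrosis.

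The mature sequences, from RefSeq on GRCm38.p6, are shown because each arm has a seed of its own. They are written 5′ to 3′, with the seed (bases 2 to 8) in capitals. The third is miR-5129-3p, whose gene lies on chromosome 2, the single other mature mouse miRNA in that table with the seed of miR-455-5p.
mmu-miR-455-5p: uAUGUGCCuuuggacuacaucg
mmu-miR-455-3p: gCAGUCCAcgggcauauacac
mmu-miR-5129-3p: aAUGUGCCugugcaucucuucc

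Both arms of miR-455 were read from the plus strand of chromosome 4 and lay 15 bases apart. Of all annotated genes, Col27a1 alone spanned the hairpin, on the same strand, and the table placed 0 other miRNA genes within the span of Col27a1. The messenger RNA of the host gene was not measured on this array. RNAduplex paired 16 bases between the arms, with 7 of the 7 seed bases of miR-455-5p and 6 of the 7 of miR-455-3p in pairs. The 3p arm had 21 bases and 57.1% G or C, and the 5p arm 22 bases and 45.5%. No other of 1679 mature names in the table had the seed of miR-455-3p. The longest run of bases shared with any other mature miRNA was 8 for each arm. miR-5129-3p was well above background on none of the 6 arrays, at -0.35 to -0.02% of the scaling value on aged arrays and -0.57 to 0.26% on young arrays.

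The signal of both arms was lower on every aged array than on every young array. Levels are percentages of a scaling value, the 75th percentile of the array's own probe signals among probes well above background on every array. miR-455-3p stood at 4.34, 4.34 and 6.23% on aged arrays 1, 2 and 3, against 9.17, 8.86 and 8.91% on young arrays 1, 2 and 3. Aged arrays 1 and 2 were nearly alike, and aged array 3 lay nearest to the young group without reaching it. The means were 4.97 ± 1.09% in aged kidney and 8.98 ± 0.17% in young kidney (SD, n = 3 each).

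miR-455-5p stood at 3.23, 3.69 and 3.90% on aged arrays 1, 2 and 3, against 6.46, 5.75 and 6.64% on young arrays 1, 2 and 3. Again the groups did not overlap. The means were 3.60 ± 0.34% in aged kidney and 6.28 ± 0.47% in young kidney (SD, n = 3 each). On the log2 scale the aged minus young difference of miR-455-3p was -0.87 ± 0.17 and that of miR-455-5p was -0.80 ± 0.10 (± SE, from the spread between arrays). The 2 differences ranked 11 and 13 of 193 from the lowest. miR-455-5p entered the 193 through probes well above background throughout the young group alone, the group in which its signal was higher. Of these 193 tested miRNAs, 20.2% had every aged array below every young array and 10.4% had every aged array above, while 3.63% were lower in aged kidney past a limma adjusted p of 0.05. Because the arms were chosen on this contrast, nothing is read from these ranks or shares. In whole kidney, fewer cells that hold miR-455 and less miR-455 per cell cannot be told apart.

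**Figure D1:**
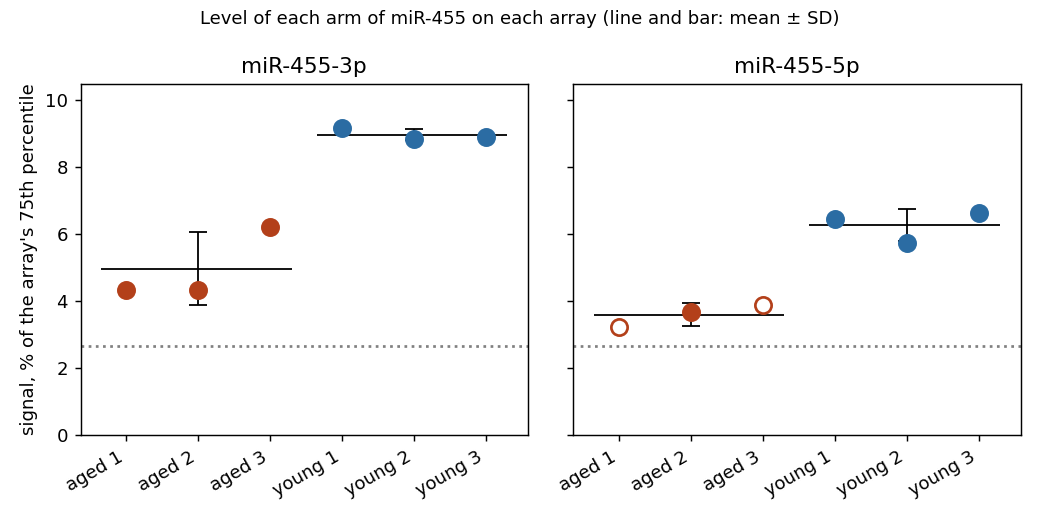
Signal of miR-455-3p (left) and miR-455-5p (right) as a percentage of the array's 75th percentile, for each aged array (red) and each young array (blue), with lines at group means and bars of 1 SD. Open points are arrays on which no probe of the arm was well above background, the dotted line is the floor of 2.68%, and aged points lie at 3.23 to 6.23% while young points lie at 5.75 to 9.17%.

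Both arms were dim, and the 5p arm lay near the detection limit in aged kidney. Each arm had 2 probes with 20 spots each. Well above background here means that the scanner software marked more than 50% of a probe's kept spots so. The lowest scaled signal of a probe that met this was 1.80 to 3.01% on aged arrays and 2.55 to 3.07% on young arrays. miR-455-3p had such a probe on all 3 aged arrays and all 3 young arrays. miR-455-5p had one on 1 of the 3 aged arrays, array 2, and on all 3 young arrays. The scanner software's own flag for a detected miRNA was set for both arms on all 6 arrays.

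The brighter probe of each arm was the one mostly read above background. For miR-455-3p its mean processed signal, in intensity units before scaling, was 36.2, 61.5 and 52.6 on aged arrays 1 to 3, against 89.3, 76.1 and 74.1 on young arrays 1 to 3. The 95th percentile of the 1000 negative control spots was 12.5 to 18.3 on aged arrays and 14.7 to 19.2 on young arrays. The probe thus lay above that level on every array, and the aged values lay below the young ones even without scaling. Its mark for well above background was on 14 of 20, 20 of 20 and 18 of 19 kept spots on aged arrays 1 to 3, and on 58 of 58 kept spots of the young arrays.

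Single spots of that miR-455-3p probe separated the ages completely after scaling. The 59 kept aged spots ran from 0.60 to 5.01%, with a median of 3.34%, and the 58 kept young spots from 5.63 to 7.45%, with a median of 6.18%. None of the aged spots (0 of 59) reached the lowest young spot. Spots of 1 array share its RNA and its scaling, so they are repeat readings and not samples. Aged array 1 was uneven, with kept spots between 7.02 and 57.0 intensity units and a coefficient of variation of 34.1%. The coefficient was 9.56 and 13.8% on the other aged arrays and 7.09 to 8.85% on the young arrays.

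For miR-455-5p the brighter probe gave 28.5, 54.9 and 40.0 intensity units on aged arrays 1 to 3, against 67.0, 49.8 and 57.1 on young arrays 1 to 3. Before scaling, aged array 2 thus lay above young array 2, and the groups overlapped. The mark was on 4 of 17, 20 of 20 and 8 of 19 kept spots on aged arrays 1 to 3, and on all 58 kept young spots. After scaling, 8 of the 56 kept aged spots reached the lowest young spot, at 3.37%. The medians over spots were 2.64% on aged arrays and 4.52% on young arrays.

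The dimmer probe of each arm is given array by array, since it was mostly not well above background. For miR-455-3p it stood at 1.25, 1.35 and 2.13% on aged arrays 1 to 3, against 2.85, 2.54 and 2.68% on young arrays 1 to 3, and it met the criterion on young array 1 alone. For miR-455-5p it stood at 0.80, 1.02 and 0.78% on aged arrays 1 to 3, against 1.73, 1.61 and 1.84% on young arrays 1 to 3, and it met the criterion on 0 of 6 arrays. In both probes every aged value was below every young value. The dimmer probe gave 40.5, 45.0 and 52.0% of the brighter one's signal on aged arrays and 45.2, 40.2 and 43.1% on young arrays in miR-455-3p. In miR-455-5p it gave 32.7, 38.0 and 25.1% on aged arrays and 36.4, 38.9 and 38.3% on young arrays.

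**Figure D2:**
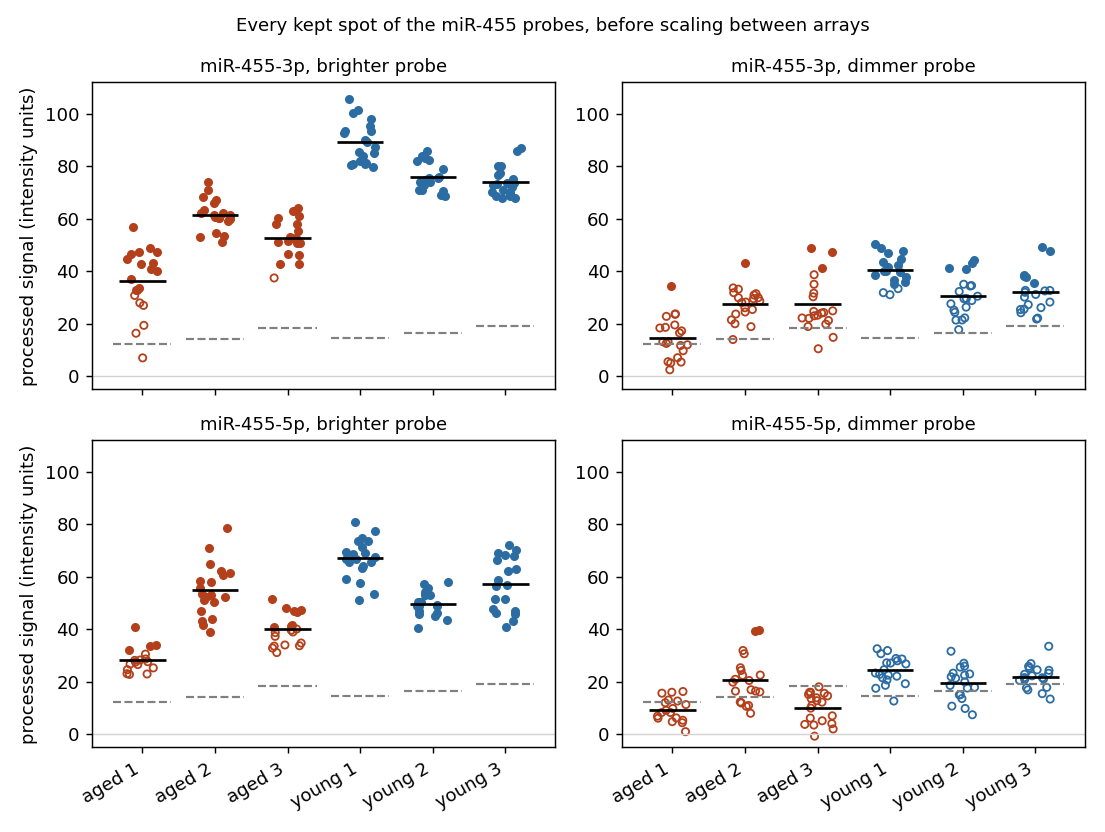
Processed signal in intensity units, before scaling, of every kept spot of the 4 miR-455 probes, with aged arrays in red and young arrays in blue. Filled points carry the mark for well above background, black bars are array means, dashed grey bars are the 95th percentile of the array's negative control spots, and the brighter miR-455-3p probe has array means of 36.2 to 61.5 on aged and 74.1 to 89.3 on young arrays.

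Both arms were lower in aged kidney, the ground on which they were chosen, and their ratio did not separate the ages. A small age change of the ratio follows in part from that choice. The 3p signal over the 5p signal was 1.35, 1.18 and 1.60 on aged arrays 1 to 3, against 1.42, 1.54 and 1.34 on young arrays 1 to 3. The aged values spanned the young ones. On the log2 scale the mean ratio was 0.45 ± 0.22 in aged kidney and 0.52 ± 0.10 in young kidney (SD, n = 3 each), a difference of -0.07 with a pooled SD of 0.17. This ratio is free of the scaling between arrays. Probes of different arms differ in how well they bind, so the ratio does not say which arm was more abundant.

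Of the other hairpins, 10 had both arms well above background on all 6 arrays, a criterion the dim 5p arm of miR-455 did not meet. Under the main scaling both arms differed in the same direction between ages in 10 of the 10, downwards in 4. The change of their arm ratio between ages was 0.02 to 0.15 in size, with a median of 0.05, beside 0.07 for miR-455. The pooled SD of the ratio between arrays was 0.03 to 0.15 for these hairpins, all below the 0.17 of miR-455. miR-378a, the hairpin hosted in a gene of mitochondrial energy control, had aged minus young values of -0.37 for miR-378a-3p, which stood at 0.044 when arrays were scaled over all probes, and -0.31 for miR-378a-5p. miR-140, a second hairpin known from cartilage, had 0.14 for miR-140-3p and 0.01 for miR-140-5p.

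The size of the difference depended on how arrays were put on 1 scale. The 75th percentile used for scaling was 1171, 2053.5 and 1284 intensity units on aged arrays 1 to 3, against 1415, 1203 and 1191 on young arrays 1 to 3, so that aged array 2 was divided by the highest value. Summed over probes and unscaled, miR-455-3p had 73.3 ± 20.0 units in aged kidney and 114 ± 13.5 in young kidney, and miR-455-5p had 54.5 ± 19.4 in aged kidney and 79.9 ± 11.1 in young kidney (SD, n = 3 each). Without scaling the log2 differences were -0.67 and -0.60, and scaled over all probes by their 75th percentile they were -0.46 and -0.39. Only 315 of the 3105 probes were well above background on all 6 arrays, so the percentile over all probes was taken among dim probes near background. For miR-455-5p the groups overlapped without scaling and when scaled over all probes, and they did not overlap under the other 23 of 25 settings. For miR-455-3p they did not overlap under any of the 25. Many of these settings could not have shown an overlap. A smaller floor, a block in the model or another choice of tested miRNAs left the main values of the arms as they were. Settings that leave out arrays only drop values from groups that already did not overlap.

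Over the 193 tested miRNAs the aged minus young difference had a median of -0.08, which moved to 0.12 without scaling and to 0.33 when scaled over all probes. Relative to that median, miR-455-3p stood at -0.79 and miR-455-5p at -0.72 under the main scaling, under both of these and with the median over detected probes. These settings differ only in 1 divisor per array, which moves all miRNAs alike, so the relative values are the same by construction. Relative to it under quantile normalization they stood at -0.67 and -0.54. With normexp background correction, which adds an offset of 50 intensity units and so compresses dim signals, they stood at -0.28 and -0.20.

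**Figure D3:**
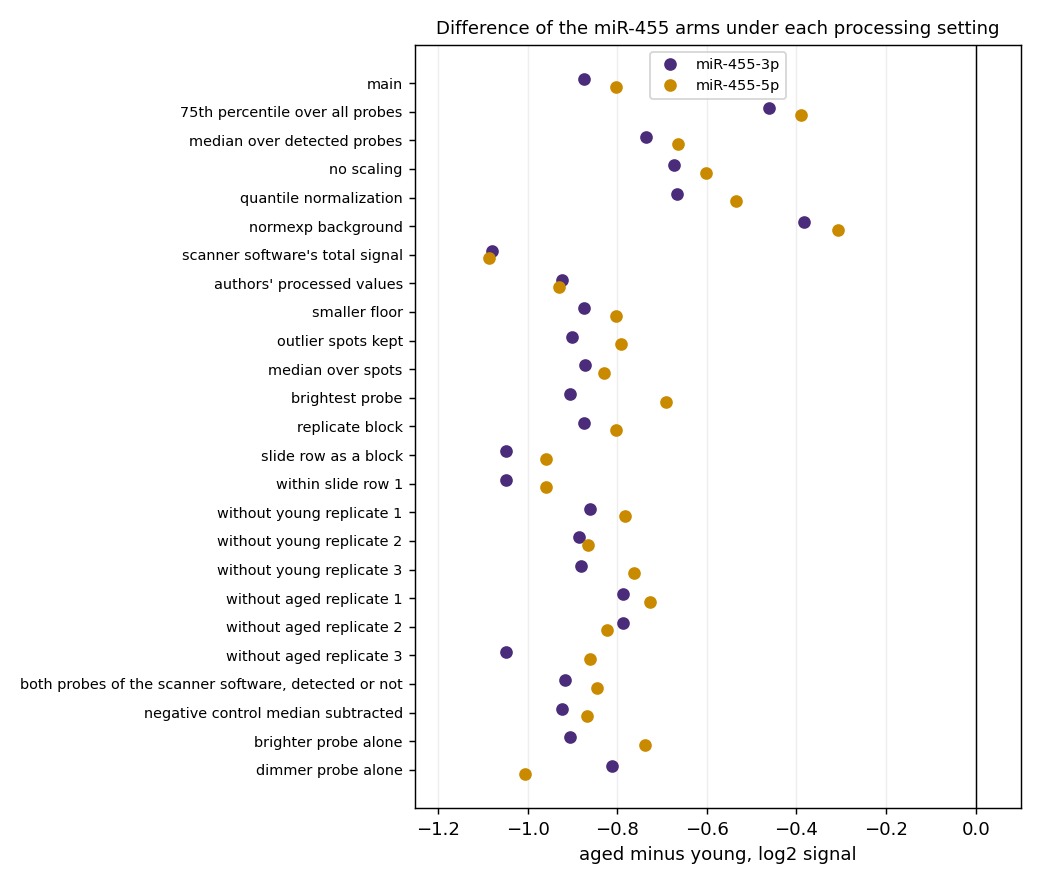
Aged minus young difference in log2 signal (horizontal axis) of miR-455-3p (purple) and miR-455-5p (orange-yellow) under the main processing and each alternative (rows). All points lie below 0, between -1.08 and -0.38 for miR-455-3p and between -1.09 and -0.31 for miR-455-5p, and the dimmer probes are mostly not well above background.

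All 6 arrays were on 1 slide, where aged array 1 shared row 1 with the 3 young arrays and aged arrays 2 and 3 were in row 2. Within row 1, where a single aged array stands against 3 young ones, the difference was -1.05 for miR-455-3p and -0.96 for miR-455-5p. Row 2 holds no young array, so it gives no value of its own. Against the young mean, miR-455-3p stood at -1.05 on aged array 2 and -0.53 on aged array 3. miR-455-5p stood at -0.76 on aged array 2 and -0.69 on aged array 3. Across the tested miRNAs aged array 1 correlated at 0.991 to 0.993 with young arrays and at 0.972 to 0.983 with the other aged arrays. Leaving out aged array 1 gave miR-455-3p a difference of -0.79 and miR-455-5p one of -0.73.

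The miRNAs with profiles nearest to miR-455 were 3 of the miR-181 family and 2 others. Nearness was the root mean square distance, over the 6 arrays, between the log2 values of a miRNA and those of the 2 arms (averaged), each set to its own mean. It was 0.17 for miR-181b-5p, 0.19 for miR-181a-5p and 0.21 for miR-181c-5p, members of a family known from lymphocyte development. It was 0.23 for miR-503-5p, a miRNA linked to cell cycle exit, and 0.23 for miR-3107-5p, the array's name for the erythroid miR-486-5p. The 2 arms stood 0.15 apart from each other by the same measure, and the median of all other tested miRNAs was 0.43. The next miRNA in order also stood at 0.23, so the cut at 5 is arbitrary. Since the arms were chosen as lower in aged kidney, nearness to them largely picks miRNAs with a similar age difference. The aged minus young differences of these 5 were -0.52, -0.47, -0.49, -0.43 and -0.56 in the order named, all smaller in size than those of the arms. When scaled over all probes, by a value near background, they were -0.10, -0.05, -0.08, -0.016 and -0.15 in the same order, beside -0.46 and -0.39 for the arms. miR-503-5p was well above background on 1 aged array and 3 young arrays. Without aged array 1, 3 of these 5 remained among the nearest 5, and likewise under quantile normalization and with normexp.

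**Figure D4:**
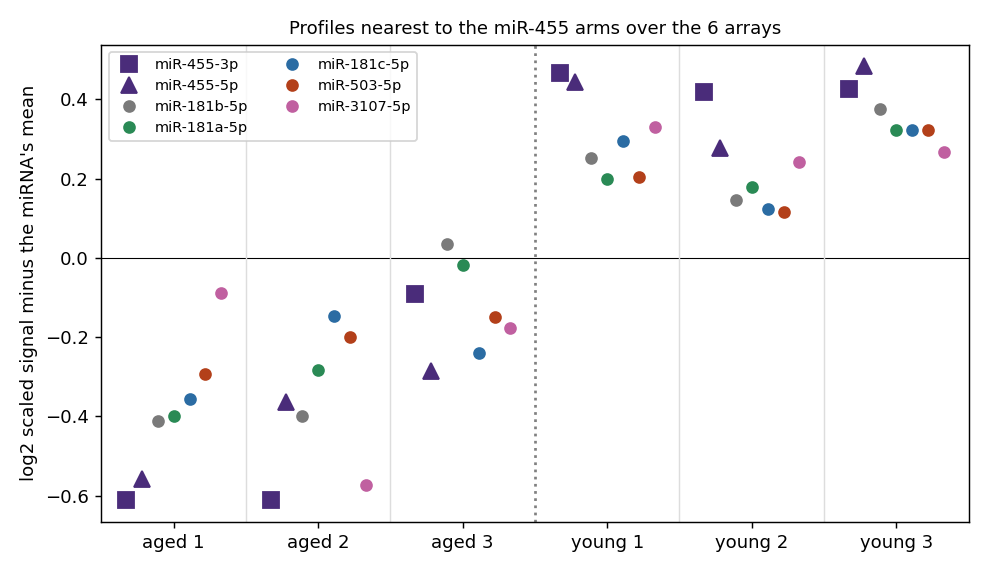
Log2 scaled signal of miR-455-3p, miR-455-5p and the 5 miRNAs nearest to them, each less its own mean over the 6 arrays (vertical axis), by array. Aged arrays are left of the dotted line and young arrays right of it, and miR-455-3p lies at its lowest on aged arrays 1 and 2.

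The miRNAs known to share the settings of miR-455 had 0 calls by limma under the main scaling. Of all tested miRNAs, 4.15% were called higher and 3.63% lower by limma (adjusted p under 0.05), and 25.4% had an unadjusted p under 0.05. At these shares 0 calls among so few tested miRNAs is near the background, so nothing is read from it. Of the 5 cartilage miRNAs, 3 were tested, and 0 were called in either direction, with 1 at an unadjusted p under 0.05. miR-140-5p and miR-140-3p, which restrain cartilage breakdown, stood at 0.01 ± 0.09 and 0.14 ± 0.12 (log2 difference ± SE, limma adjusted p = 0.961 and 0.454). miR-145a-5p, known to repress SOX9, stood at -0.25 ± 0.09 (limma adjusted p = 0.149). The median of the 3 was 0.01, beside -0.08 for all tested miRNAs. miR-675-5p and miR-675-3p, cut from the H19 transcript, were well above background on 0 of 6 arrays.

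Of the 11 brown fat miRNAs 9 were tested, with 0 called by limma, 1 at an unadjusted p under 0.05 and a median of 0.09. miR-193b-3p and miR-365-3p, 1 cluster required for brown adipocyte differentiation, stood at 0.19 ± 0.16 and 0.13 ± 0.08 (limma adjusted p = 0.454 and 0.333). miR-203-3p stood at 0.15 ± 0.10 and miR-196a-5p, which promotes browning of white fat, at -0.04 ± 0.11 (limma adjusted p = 0.351 and 0.85). miR-378a-3p had the lowest value of the list, at -0.37 ± 0.12 (limma adjusted p = 0.104), and it passed without aged array 3 at -0.47 (limma adjusted p = 0.0468, where its alternatives ran between 0.0468 and 0.916).

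miR-30b-5p and miR-30c-5p, 2 members of the miR-30 family, stood at -0.15 ± 0.08 and 0.09 ± 0.09 (limma adjusted p = 0.318 and 0.531). miR-155-5p and miR-27b-3p are known as brakes on brown fat. miR-155-5p stood at 0.32 ± 0.13 (limma adjusted p = 0.186), passing with the median over detected probes at 0.46 and under quantile normalization at 0.59 (limma adjusted p = 0.0458 and 0.00746, where its alternatives ran between 0.00746 and 0.933), and at -0.016 with normexp. miR-27b-3p stood at -0.14 ± 0.07 (limma adjusted p = 0.268). miR-182-5p and the muscle miRNA miR-133a-3p were well above background on 0 of 6 arrays.

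Of the 3 hypoxia miRNAs 1 was tested, with 0 called by limma and 0 at an unadjusted p under 0.05. miR-210-3p, induced by hypoxia-inducible factors, stood at -0.39 ± 0.17 (limma adjusted p = 0.194). miR-31-5p, known to lower the hypoxia sensor HIF1AN as miR-455 does, was well above background on 1 aged array and 0 young arrays. miR-135b-5p was so on 0 arrays.

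**Figure D5:**
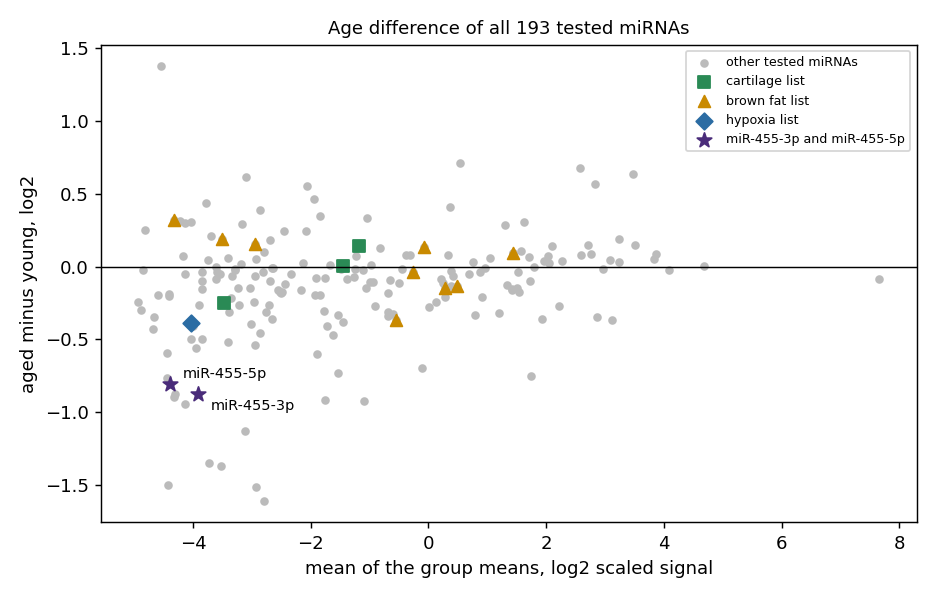
Aged minus young log2 difference (vertical axis) of the 193 tested miRNAs against the mean of the group means on the log2 scale (horizontal axis), with the miR-455 arms as stars and the cartilage, brown fat and hypoxia lists in colour. The arms lie at -0.87 and -0.80, and the listed miRNAs between -0.39 and 0.32.

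The arrays carried the marker miRNAs of kidney. Under the main scaling the summed erythroid markers were lower on every aged array, and the summed leukocyte and stromal markers were higher. Such sums mostly follow the brightest member, miR-451a in the erythroid list and miR-199a-3p in the stromal list. Of all tested miRNAs, limma called 4.15% higher and 3.63% lower, and 25.4% had an unadjusted p under 0.05. All 9 kidney miRNAs were well above background on all 6 arrays, with a summed level of 24.5 to 28.0 times the array's 75th percentile on aged arrays and 24.5 to 28.0 times on young arrays, and 0 were called by limma (1 at an unadjusted p under 0.05). The 3 erythroid miRNAs summed to 6.37 to 7.17 on aged arrays and 8.37 to 9.39 on young arrays, with 0 called and all 3 at an unadjusted p under 0.05 by limma. The 6 leukocyte miRNAs summed to 1.02 to 1.21 on aged arrays and 0.80 to 0.92 on young arrays (0 called of 5 tested by limma, 3 at an unadjusted p under 0.05). The 5 stromal and smooth muscle miRNAs summed to 2.35 to 2.57 on aged arrays and 2.06 to 2.15 on young arrays, with miR-199a-3p and miR-199a-5p called higher and 0 called lower by limma, and all 5 at an unadjusted p under 0.05. Values in the stromal list lay on both sides of 0. miR-143-3p stood at -0.27 and miR-145a-5p at -0.25 without passing. Each had every aged array below every young array, as 20.2% of all tested miRNAs did.

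Markers of the tissues best known for miR-455 did not separate the ages. The 2 chondrocyte miRNAs summed to 0.76 to 0.91 on aged arrays and 0.73 to 0.85 on young arrays, and the 3 adipose miRNAs to 1.04 to 1.14 on aged arrays and 0.94 to 1.08 on young arrays, with 0 called of 2 tested in each by limma (0 at an unadjusted p under 0.05). The 2 endothelial miRNAs summed to 6.64 to 7.23 on aged arrays and 6.21 to 6.84 on young arrays, with 0 called of 1 tested by limma (0 at an unadjusted p under 0.05). The 3 skeletal muscle miRNAs were never well above background on all arrays of a group, 0 of them were tested, and they summed to 0.041 to 0.058 on aged arrays and 0.051 to 0.073 on young arrays. The chondrocyte markers stand in the cartilage list too, miR-193b-3p and miR-365-3p in the brown fat and adipose lists, miR-145a-5p in the cartilage and stromal lists, and miR-155-5p in the brown fat and leukocyte lists. The part of blood and stromal cells in the miR-455 difference was not tested.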

How the data were processed

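Whole-kidney total RNA of 3 aged and 3 young preparations was hybridised to 1-colour Agilent miRNA arrays. The deposited spot values are fluorescence intensity, background-corrected in Feature Extraction 11.5.1.1 for a design on build mm9, per the file headers. The authors' deposited log2 values equalled, over 1268 features, the log2 total gene signal of the scanner less 1 constant per array, its origin not given in the sources used here.

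Outlier spots were left out, spots averaged per probe, each array divided by its 75th percentile over 315 probes well above background on all 6 arrays, probes summed per miRNA, a floor of -5.22 (log2) set and log2 taken. Testing covered 193 miRNAs, those with any probe well above background on every array of 1 or both groups. It used limma 3.58.1 in R 4.3.3 (lmFit, eBayes), with Benjamini-Hochberg adjustment over all 193 and a threshold of 0.05. p-values measure the spread between preparations. The test was tried on simulated data with independent noise and planted changes. Those data held no floor, slide or shared array effects, so the trial does not bear on the calls given here. Arm pairing came from RNAduplex 2.7.2, and figures from matplotlib 3.10.9.

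Members and lists were chosen with earlier results of these data known. Text names the 2 arms, the 5 nearest miRNAs, listed miRNAs and seed-sharing miRNAs. The spots hold no mean pixel signal, so normexp used the median. miR-145-5p and miR-486-5p were read as miR-145a-5p and miR-3107-5p.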

Additional observations from a re-analysis of the deposited data

How the results depend on the processing

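The aged minus young difference was negative under all 24 alternatives for both arms. The difference moved by less than 1 SD between arrays under 22 of them for miR-455-3p and 15 for miR-455-5p. That SD was each arm's own pooled value, 0.21 for miR-455-3p and 0.13 for miR-455-5p. A changed divisor shifts both arms alike, so the 2 counts do not say which arm was the steadier. A smaller floor and the replicate block left the difference unchanged, and leaving out single arrays could not change its sign. miR-455-3p moved to -0.46 when scaled over all probes (their 75th percentile, a value near background) and to -0.38 with normexp. Without single arrays miR-455-3p ranged from -1.05 to -0.79. miR-455-5p moved to -0.39 when scaled over all probes, -0.66 with the median over detected probes, -0.60 without scaling, -0.54 under quantile normalization, -0.31 with normexp, -1.09 with the scanner software's total signal, -0.96 with slide row as a block or within row 1, and -1.01 with its dimmer probe alone, a difference of measured values only, since that probe was well above background on 0 of 6 arrays. Without single arrays it ranged from -0.87 to -0.73. The arm ratio's change ranged from -0.21 to 0.03. The causes were not tested, except that the offset of normexp compresses dim signals by construction. Alternatives that sum both scanner probe totals (-0.92 and -0.84) or subtract the negative control median (-0.92 and -0.87) were chosen after seeing the data.

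Calls over all miRNAs were 8 higher and 7 lower. They were 18 and 3 with the median over detected probes, 1 and 1 without scaling, 19 and 2 under quantile normalization, 4 and 0 with normexp (27 at an unadjusted p under 0.05 by limma), 2 lower with the scanner's total signal, 0 lower in the authors' values (39 at an unadjusted p under 0.05 by limma), 2 and 3 with slide row as a block, and 4 and 2 without a detection filter. Leaving out single arrays gave 3 to 12 higher and 2 to 27 lower. The brown fat list had 1 call with the median over detected probes and under quantile normalization, and 0 to 1 without single arrays. Its 1 call within row 1 rests on a single aged array, assumed to vary as the young arrays do. Of the 5 nearest miRNAs 3 stayed under quantile normalization, with normexp and within row 1, and 3 to 5 without single arrays. The replicate block gave 2 higher and 1 lower. The deviations of same-numbered arrays from their group means correlated at 0.12, -0.58 and 0.31, the second pair in opposite directions. The labels name no pairing beyond the shared number, and these values cannot settle whether such arrays share more.

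Uncalled list members changed sign as follows. miR-140-5p stood at -0.032 with normexp, -0.035 with the scanner's total signal, -0.018 with outlier spots kept, -0.0044 with the brightest probe, -0.13 with slide row as a block or within row 1, and -0.040 to 0.075 without single arrays. miR-196a-5p stood at 0.38 when scaled over all probes, 0.10 with the median over detected probes, 0.17 without scaling, 0.079 under quantile normalization, 0.080 in the authors' values, and -0.093 to 0.048 without single arrays. When scaled over all probes, by a value near background, miR-145a-5p stood at 0.16, miR-378a-3p at 0.044, miR-30b-5p at 0.26, miR-27b-3p at 0.28 and miR-210-3p at 0.024. Without scaling miR-30b-5p stood at 0.054 and miR-27b-3p at 0.067, and with the median over detected probes miR-27b-3p at 0.0045. With normexp miR-193b-3p stood at -0.040 and miR-155-5p at -0.016. Signal near background and 3 arrays a group limit the precision.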

Other observations

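The authors' deposited values of the arms counted different numbers of probes on different arrays. The scanner's summed value for a miRNA, on which those values rest, left out a probe it did not call detected. For miR-455-5p it summed both probes on young arrays 1 and 3, and 1 probe on young array 2 and on all 3 aged arrays. In the authors' table miR-455-5p stood at -2.78, -2.49 and -2.37 (log2) on aged arrays 1 to 3, against -1.39, -2.07 and -1.41 on young arrays 1 to 3, so that young array 2 lay nearer to the aged group than to the other young arrays. Adding the left-out probe raised the log2 value by 0.41, 0.46 and 0.32 on aged arrays 1 to 3 and by 0.47 on young array 2.

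For miR-455-3p both probes were summed on 5 of the arrays and 1 on aged array 1, where the left-out probe amounted to 0.49 on the log2 scale. The authors' table had -2.44, -1.79 and -1.38 for miR-455-3p on aged arrays 1 to 3, against -0.88, -0.97 and -0.98 on young arrays 1 to 3. The lowest of these values, on aged array 1, is the one that rests on a single probe.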
